A study of Mus musculus with 12 samples.

Results

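Bone marrow-derived macrophages (BMDM) of WT mice were compared between the stiff and the soft hydrogel, both without IL-4. The 4 libraries WT stiff 1, WT stiff 2, WT soft 1 and WT soft 2 were used, of 12 in the series. The genes described are the 10819 of the 14098 in the deposited table that reached 1 TPM (a measure of mRNA abundance corrected for gene length, which sums to 1000000 in every library) in at least 2 of these 4 libraries. Marrow came from male and female C57Bl/6 mice aged 8 to 10 weeks, but Xist, expressed in female cells, was listed at 0 in all 4 libraries, while the Y-linked genes Ddx3y, Eif2s3y, Kdm5d and Uty were present in each, as in male cells. Cells were grown in medium with 30% L929-conditioned medium, the source of the macrophage growth factor M-CSF, on ultra-low attachment plates until day 4. BMDM were then embedded in a collagen and hyaluronic acid gel. The stiff gel was crosslinked 24 h later by UV light with the photoinitiator Irgacure 2959. It also held more collagen than the soft gel, as the study's methods say. Cells stayed in the gel for 48 h more and were freed with collagenase IV at 400 U/mL for 1 h. Stiffness, collagen content, photoinitiator and UV light therefore cannot be told apart in this comparison. Groups used beside it are WT BMDM in the soft gel with IL-4 (WT soft+IL-4) and BMDM of Camkk2-/- mice, labelled KO, in the soft and stiff gels without IL-4, with 2 libraries each. The labels call the libraries of a group biological replicates but do not say whether each came from its own mouse, so p-values measure only the spread between these libraries. Values of a gene are given for WT soft 1 and WT soft 2 and then for WT stiff 1 and WT stiff 2, in this order, and a number with ± is the log2 fold change of stiff over soft with its standard error (SE).

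Macrophages change their gene expression with the signals around them. Interleukin-4 acts through its receptor and the transcription factor STAT6 and induces arginase, chitinase-like proteins, lectin receptors and chemokines of tissue repair and allergy, a state often called M2-like. Interferons act through their receptors and induce a large set of antiviral genes, many of which macrophages also express at a low tonic level. Toll-like receptors (TLR) sense microbial products and drive inflammatory cytokines through NF-kB. Camkk2 encodes a calcium and calmodulin-dependent kinase that activates AMPK.

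Camkk2 (chr5:122731170-122779409, mm10) is the gene deleted in the KO mice. WT soft 1 held 44.2 TPM of it and WT soft 2 11.7 TPM, while the WT stiff libraries held 23.3 and 23.7 TPM. In KO soft 1 and 2 it was listed at 46.6 and 11.5 TPM and in KO stiff 1 and 2 at 37.7 and 10.0 TPM. WT soft 2 therefore lay at the level of the low KO libraries, while the libraries labelled KO soft 1 and KO stiff 1 lay above the WT stiff level, so that 3 libraries went against their genotype label. All were kept in their labelled groups, and the main counts are also given without these 3. Camkk2 did not pass the test between WT stiff and WT soft (log2 fold change 0.03 ± 0.76, adjusted p = 0.984).

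The stiff libraries lay far apart. Over the 10819 genes, the standard deviation (SD) of the difference in log2(TPM + 1) was 0.663 between WT stiff 1 and WT stiff 2, against 0.359 between the soft libraries. At least a 2-fold difference separated the stiff libraries in 1042 genes, against 192 for the soft libraries and 126 for the WT soft+IL-4 libraries. WT stiff 2 was nearest to WT soft+IL-4 2, at an SD of 0.171, which was the smallest distance among all 66 pairs of libraries, and only 22 genes differed 2-fold between them. The 4 libraries nearest to it were the 4 with IL-4, of both genotypes. By profile, the library labelled WT stiff 2 thus lay with the IL-4 libraries rather than with WT stiff 1, although its label names the stiff gel and no IL-4. Whether the label is right was not tested, and every value given for WT stiff 2, and every mean of the stiff libraries, depends on it. WT stiff 1 was at least 0.663 from every other library. The library nearest to each of the WT soft libraries was KO soft 2. It lay at an SD of 0.175 from WT soft 2, with 25 genes 2-fold apart, and at 0.352 from WT soft 1. Whether the genotype label of WT soft 2, whose Camkk2 was also at the low KO level, is right was not tested. Each result below is given for the 2 stiff libraries separately. Cd68, a macrophage gene, was at 1813 and 1990.4 TPM in soft and 1825 and 1921 TPM in stiff. Most macrophage and monocyte genes were lower in stiff, with a median log2 fold change of -0.72. In 11 of the 15 both stiff libraries lay below both soft libraries, beside 23.1% of all genes. Adgre1 went from 888 and 1072 TPM to 538 and 476 TPM. Cd3d, Ms4a1, Col1a1, Cdh5 and Klf1, defining genes of T cells, B cells, fibroblasts, endothelium and red cell precursors, were at 0.323 TPM or less in all 4 libraries.

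**Figure D1:**
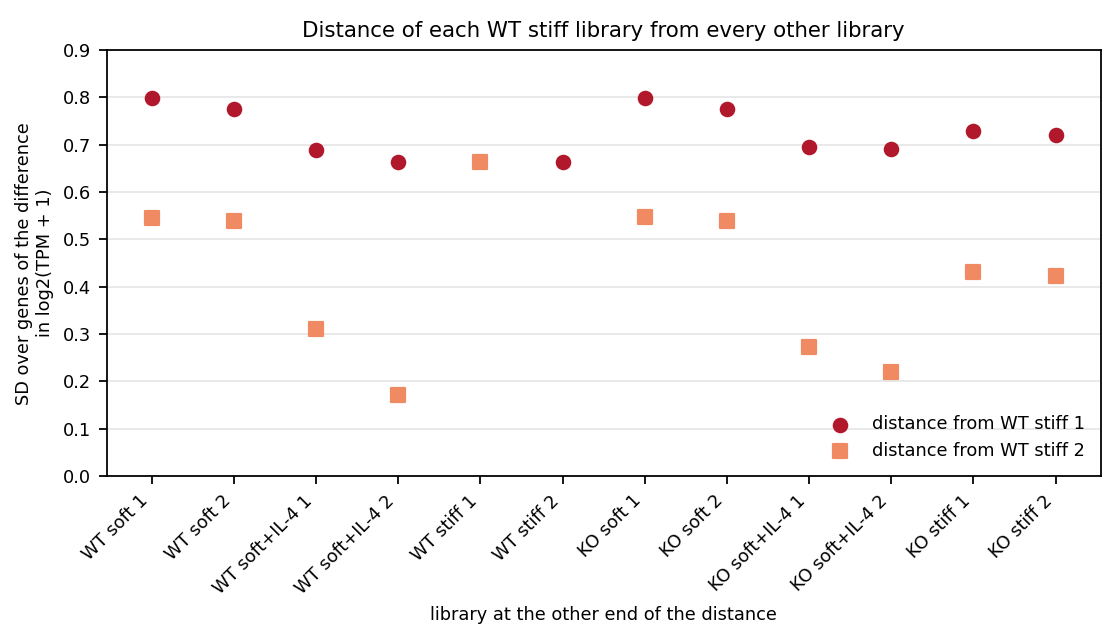
The distance of WT stiff 1 (circles) and WT stiff 2 (squares) from each of the other 11 libraries, as the SD over the 10819 genes of the difference in log2(TPM + 1). WT stiff 2 lies 0.171 from WT soft+IL-4 2 and 0.538 or more from the WT soft libraries, while WT stiff 1 lies at 0.663 or more from all libraries.

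Genes were tested with limma on log2(TPM + 1), with all 12 libraries in the fit and p-values adjusted over the 10819 genes, and a gene was called when its adjusted p was under 0.05 and its mean changed by at least 1 on the log2 scale (2-fold). In the stiff gel 192 genes rose (1.77% of the genes tested) and 251 fell (2.32%), which made 443 called genes (4.09%). Of the 192, 39 were among the 90 tested genes that reached 1 TPM in both stiff libraries and in no soft library. Of the 251, 21 were among the 76 that reached it in both soft libraries and in no stiff library. Such genes entered the test only through the group in which they were higher, so their direction was favoured by the filter. An unadjusted p under 0.05 was found in 2635 genes (24.4%). In all 443 called genes both stiff libraries lay on the same side of both soft libraries, a separation that 43.1% of all tested genes showed. Among the genes that rose, 134 were at least 2-fold above the soft mean in each stiff library, 44 in WT stiff 1 alone and 14 in WT stiff 2 alone. Among those that fell, the numbers were 164, 64 and 23. WT stiff 1 was the library farther from soft in 144 of the 192 and in 182 of the 251. With only the 4 libraries themselves in the fit 23 genes were called (11 higher and 12 lower), and with a weight for the spread of each group 290. An exact two-sided permutation test of these 4 libraries cannot give a p below 0.333. When a library is left out, the one that remains of its group is assumed to vary like the other groups. In such fits the number of calls over all genes changed, and so did the genes called. The shares of all genes called, given beside the lists below, belong to the fit of all 12 libraries. List counts from other fits cannot be set beside those shares, so a change in them is no result about the list. With WT stiff 1 left out 473 genes were called, with WT stiff 2 left out 1064, with WT soft 2 left out 277, and without the 3 libraries that went against their Camkk2 label 140.

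**Figure D2:**
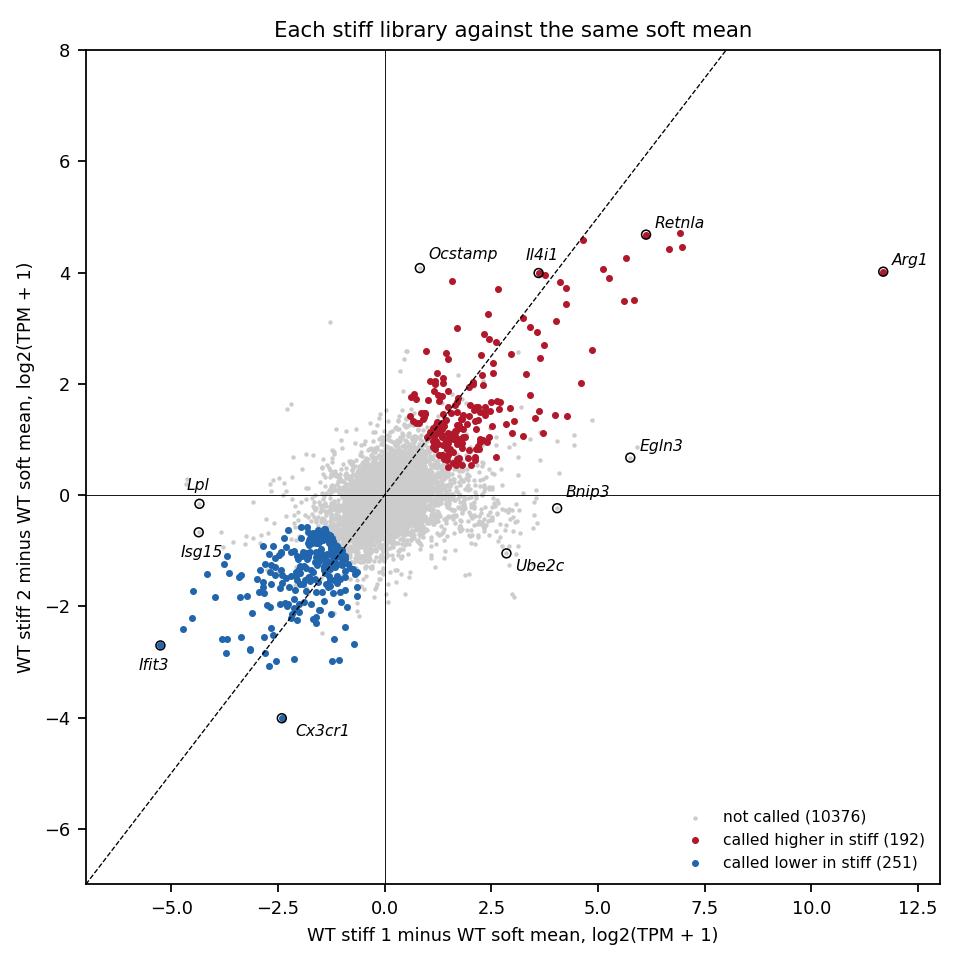
Difference of WT stiff 1 (horizontal axis) and WT stiff 2 (vertical axis) from the mean of the soft libraries in log2(TPM + 1), 1 point per gene, with the 192 genes called higher in red, the 251 called lower in blue and the line of equal difference dashed. Both axes share the soft mean. Egln3, Bnip3 and Ube2c lie far right near the horizontal axis or below it, Lpl and Isg15 far left of the vertical axis near 0, and Ocstamp high in WT stiff 2.

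Genes that IL-4 typically induces had the highest median of the gene lists. Of 29 tested, 24 rose and none fell, beside 1.77% of all genes that rose. The median log2 fold change of the 29 was 2.74, with 2.96 in WT stiff 1 and 2.62 in WT stiff 2, beside 0.01 over all genes. The list was written with the study's results known, so it is not independent evidence of its direction. Without WT stiff 1, 24 of the 29 rose, without WT stiff 2 23, without WT soft 2 17, and without the 3 libraries that went against their Camkk2 label 11. With only the 4 libraries in the fit 5 rose, of 11 that rose among all genes, while each of the other gene lists then held at most 2 called genes. STAT6 binds a core of TTC, 4 bases of any kind and GAA, which the windows below show in capitals upstream of 3 of the genes with the widest gaps between the groups.
Retnla, STAT6 core, chr16:48842439-48842498 (plus strand): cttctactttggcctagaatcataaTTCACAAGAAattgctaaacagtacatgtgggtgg
Ccl17, STAT6 core, chr8:94810274-94810333 (plus strand): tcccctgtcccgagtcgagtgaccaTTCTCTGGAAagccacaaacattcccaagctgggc
Tmem26, STAT6 core, chr10:68723680-68723739 (plus strand): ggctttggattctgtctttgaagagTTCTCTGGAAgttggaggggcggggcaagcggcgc
The windows are RefSeq promoter sequence on GRCm38.p6 (mm10), read on the strand of the gene, with the core starting 145, 154 and 41 bases before the RefSeq gene start. The core reads the same on both strands and was found in 6.95% of the 32851 promoters of the table, from 250 bases before to 50 after the start, and in 6.6% of those of the tested genes. Ms4a6b, a gene with a wide gap that fell, held the core too, as did Lgals3 and Ddx3y, which were not called. A match is a description of the sequence and not a binding site.

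Retnla (chr16:48842551-48844461), which encodes the secreted protein RELM-alpha, was at 424 and 223 TPM in soft and 21525 and 7919 TPM in stiff. It was the gene of rank 2 in WT stiff 1 and of rank 9 in WT stiff 2, after ranks 329 and 605 in the soft libraries, and its log2 fold change was 5.40 ± 0.45 (adjusted p = 0.000119). Chil3 (chr3:106147554-106167564), a chitinase-like protein also called Ym1, was at 110.4 and 35.4 TPM in soft and 7681 and 1669 TPM in stiff, a change of 5.81 ± 0.75 (adjusted p = 0.00132). Both genes were high in both stiff libraries and higher in WT stiff 1, and no soft library reached either stiff library. The neighbouring gene Chil4 went from 0.197 and 0.135 TPM to 65.7 and 12.2 TPM (4.67 ± 0.59, adjusted p = 0.00127). Chil3 and Chil4 are close copies, so their split is uncertain. The lectin receptor gene Mgl2 (chr11:70130329-70137550) was at 14.8 and 13.2 TPM in soft and 758 and 287 TPM in stiff (4.97 ± 0.35, adjusted p = 6.27e-05). Another lectin receptor, Clec10a, rose from 41.7 and 54.4 TPM to 221 and 89.1 TPM (1.54 ± 0.33, adjusted p = 0.0164). Mrc1 (chr2:14229392-14332057), the mannose receptor, rose from 52.7 and 86.3 TPM to 436 and 198 TPM (2.11 ± 0.36, adjusted p = 0.00619). The ribonucleases Rnase2a (37.5 and 20.5 TPM in soft and 2926 and 619 TPM in stiff) and Ear2 (14.7 and 4.81 TPM in soft and 1202 and 209.8 TPM in stiff) rose in both stiff libraries too. These 2 are members of 1 family of close copies, and reads could be split between them.

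Arg1 (chr10:24915221-24927484), the arginase that turns arginine into ornithine and urea, was the gene in which the stiff libraries differed most. Its level was 2.43 and 1.11 TPM in the soft libraries and 8850.2 and 42.6 TPM in WT stiff 1 and 2. Both stiff values lay above both soft values, but WT stiff 1 alone set the size of the change, and the log2 fold change of 7.85 ± 1.93 (adjusted p = 0.0312) has the largest SE of the genes in this group. The call was lost with only the 4 libraries in the fit, with a weight per group, without a filter on low values, with either soft library left out and without the 3 libraries that went against their Camkk2 label. The arginine transporter Slc7a2 was at 2.84 and 1.33 TPM in soft and 144 and 32.6 TPM in stiff, and rose by 4.54 ± 0.58 (adjusted p = 0.00127). Nos2, whose product makes nitric oxide from arginine, also passed the test, although it stayed low at 0.305 and 0.134 TPM in soft and 4.64 and 1.15 TPM in stiff (1.52 ± 0.40, adjusted p = 0.0418).

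In contrast to Arg1, the amino acid oxidase gene Il4i1 (chr7:44816387-44840809) was alike in the stiff libraries, at 232 and 304 TPM against 18.1 and 18.2 TPM in soft (3.80 ± 0.13, adjusted p = 2.4e-06). Tmem26, which encodes a membrane protein, was at 3.25 and 2.43 TPM in soft and 71.4 and 49.4 TPM in stiff (3.98 ± 0.19, adjusted p = 1.2e-05). The receptor tyrosine kinase gene Flt1 went from 2.91 and 2.17 TPM to 36.3 and 27.7 TPM (3.22 ± 0.20, adjusted p = 3.38e-05), and Ptgs1, the constitutive cyclooxygenase, from 4.06 and 3.69 TPM to 36.8 and 27.1 TPM (2.74 ± 0.17, adjusted p = 3.38e-05). The stiff libraries were within 1.5-fold of each other in Il4i1, Tmem26 and Flt1. Irf4, a transcription factor of the IL-4 response, rose from 4.6 and 3.99 TPM to 24.2 and 29.4 TPM (2.39 ± 0.13, adjusted p = 2.37e-05). The checkpoint ligand gene Pdcd1lg2 rose from 2.4 and 1.67 TPM to 56 and 31.5 TPM (3.84 ± 0.24, adjusted p = 3.69e-05). AA467197, whose product is little described, went from 0 and 0.935 TPM to 52.5 and 19.9 TPM (4.59 ± 0.66, adjusted p = 0.00244). Irf4, Pdcd1lg2, Ptgs1 and Clec10a are named here after their values were seen.

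**Figure D3:**
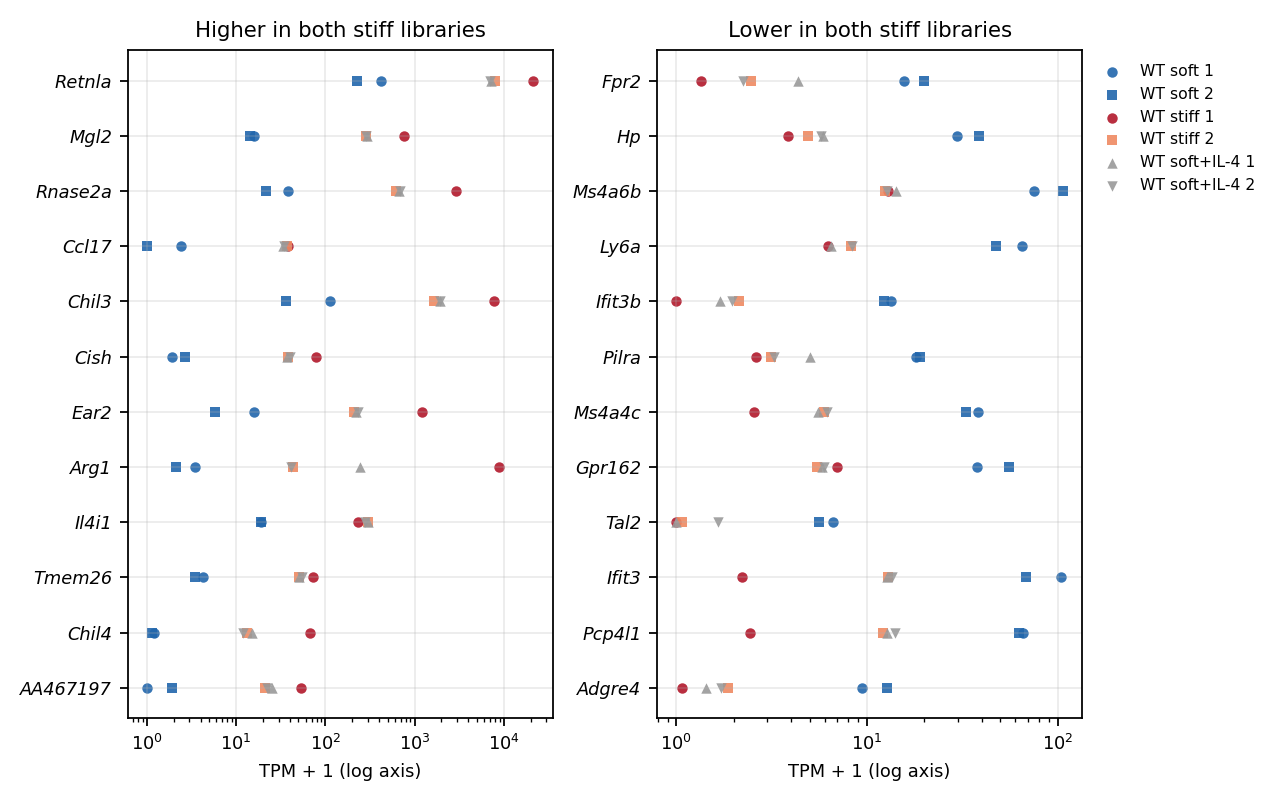
TPM + 1 (log axis) of the 12 genes with the widest gap between the nearest stiff and soft libraries in each direction, for each WT soft, WT stiff and WT soft+IL-4 library. In every gene both stiff libraries lie on one side of both soft libraries. In most of the genes on the left WT stiff 2 lies with the IL-4 libraries while WT stiff 1 lies higher.

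Among genes of the IL-4 receptor and its signalling pathway, feedback inhibitors rose. Of 16 genes tested 3 rose and 1 fell (25% called, beside 4.09% of all genes), with a median log2 fold change of -0.06. The 3 that rose encode feedback inhibitors of cytokine receptors. Socs1 was at 11.7 and 5.08 TPM in soft and 151 and 123 TPM in stiff (3.97 ± 0.32, adjusted p = 9.53e-05), Cish at 0.903 and 1.68 TPM in soft and 77.7 and 36.8 TPM in stiff (4.59 ± 0.36, adjusted p = 9.47e-05), and Socs2 went from 1.31 and 0.464 TPM to 9.77 and 8.59 TPM (2.47 ± 0.24, adjusted p = 0.000267). Ptpn6, the phosphatase SHP-1 that restrains immune receptors, fell from 317 and 327 TPM to 108 and 177 TPM (-1.21 ± 0.18, adjusted p = 0.00274). Stat6 was at 103 and 112 TPM in soft and 108 and 92.3 TPM in stiff (adjusted p = 0.566), and the receptor chain gene Il4ra at 28.5 and 40.5 TPM in soft and 33.1 and 25.4 TPM in stiff (adjusted p = 0.559). Neither receptor nor STAT6 mRNA passed the test. Both are named after their values were seen. Without WT stiff 2, 5 of the 16 rose and 2 fell, and without the 3 libraries that went against their Camkk2 label 3 rose and 0 fell.

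Chemokine ligands of the CC family, which attract monocytes and T cells, rose in 6 of 12 genes tested, beside 1.77% of all genes. None fell, and the median was 1.36. Ccl17 (chr8:94810453-94812036) was at 1.4 and 0 TPM in soft and 37.6 and 36.3 TPM in stiff, so that it was near or at 0 in soft and alike in the stiff libraries (4.61 ± 0.49, adjusted p = 0.000452). Ccl8 was at 0.708 and 6.57 TPM in soft and 47.8 and 54.8 TPM in stiff (3.86 ± 0.65, adjusted p = 0.00539), and Ccl7 at 3.13 and 6.95 TPM in soft and 66.5 and 43 TPM in stiff (3.25 ± 0.33, adjusted p = 0.000376). Ccl22 rose from 8.77 and 7.28 TPM to 55.7 and 116 TPM (3.18 ± 0.28, adjusted p = 0.000169) and was the higher in WT stiff 2, as was Ccl24, at 7.94 and 8.92 TPM in soft and 27.1 and 135 TPM in stiff (2.72 ± 0.56, adjusted p = 0.0147). Ccl2 rose from 17 and 19.3 TPM to 54.8 and 52.2 TPM (1.51 ± 0.26, adjusted p = 0.0059). Ccl3 and Ccl4, chemokines of inflammation, differed between the stiff libraries instead. Ccl3 was at 66.9 and 75 TPM in soft and 6.5 and 42.2 TPM in stiff, and Ccl4 at 63.8 and 62.2 TPM in soft and 8.37 and 46.4 TPM in stiff, and neither was called (adjusted p = 0.0721 and 0.108). Of the 12 genes 6 rose without WT stiff 1, 4 without WT soft 1, 5 without WT soft 2 and 5 without the 3 libraries that went against their Camkk2 label. Without WT stiff 2, 6 rose and 3 fell, and with only the 4 libraries in the fit none was called. Ccl2, Ccl3 and Ccl4 are named after their values were seen.

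Interferon-stimulated genes moved the other way. Of 64 tested, 28 fell and 0 rose, beside 2.32% of all genes that fell, and in 52 of the 64 both stiff libraries lay below both soft libraries, beside 23.1% of all genes. The median log2 fold change was -1.25, and it was -1.72 in WT stiff 1 and -0.71 in WT stiff 2. At least a 2-fold fall from the soft mean was seen in 50 of the 64 genes in WT stiff 1 and in 21 in WT stiff 2. Of all genes, 4.58% and 3.08% fell that far. The next counts of the 64 are from other fits, in which the calls over all genes changed too. The number that fell was 21 without WT stiff 1, 45 without WT stiff 2, 14 with either soft library left out and 3 without the 3 libraries that went against their Camkk2 label, and it was 0 with only the 4 libraries in the fit. The interferon-stimulated response element, which IRF and STAT factors bind, has a core of GAAA, 2 bases of any kind and GAAA, which is shown in capitals, on either strand, in promoters of 3 of the genes that fell farthest.
Ifit3, ISRE core, chr19:34583348-34583407 (plus strand): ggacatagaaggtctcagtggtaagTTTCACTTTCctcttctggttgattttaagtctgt
Ifit3, ISRE core, chr19:34583382-34583441 (plus strand): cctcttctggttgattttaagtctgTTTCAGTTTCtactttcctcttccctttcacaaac
Ifit1, ISRE core, chr19:34640760-34640819 (plus strand): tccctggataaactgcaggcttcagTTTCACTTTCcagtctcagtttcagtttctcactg
Cxcl10, ISRE core, chr5:92349068-92349127 (minus strand): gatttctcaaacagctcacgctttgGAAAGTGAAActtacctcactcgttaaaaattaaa
These windows are RefSeq sequence on GRCm38.p6 in the direction of the gene. In the Ifit windows the core stands on the opposite strand and reads TTTC, 2 bases and TTTC, and Ifit3 holds 2 cores 34 bases apart. Ifit1 holds a second core, 85 bases before the gene start, which lies in lower case within the window shown. The core was found in 3.44% of all promoters of the table and in 4.01% of those of the tested genes, and it overlapped the STAT6 core in 18 promoters. The windows shown are a choice. The core was also found in promoters of Socs1 and Mmp13, which rose, and of Ctss and B2m, which were not called. Promoters were matched for 75.3% of the genes that fell and for 77.6% of those that rose, so a comparison of shares between these groups is void.

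Ifit3 (chr19:34583531-34588731), an antiviral RNA-binding protein, was at 103 and 67.1 TPM in soft and 1.21 and 11.9 TPM in stiff (-3.98 ± 0.64, adjusted p = 0.0043). Ifit1 was at 37 and 30.4 TPM in soft and 0.548 and 9.5 TPM in stiff (-3.10 ± 0.66, adjusted p = 0.0159), and the neighbouring copy Ifit3b at 12.4 and 11.3 TPM in soft and 0 and 1.14 TPM in stiff (-3.14 ± 0.32, adjusted p = 0.000376). Ifit3 and Ifit3b are near-identical, so their reads could not be told apart with certainty. Each of the 3 was low in both stiff libraries and lowest in WT stiff 1. Irf7 (chr7:141262706-141266481), the factor that amplifies interferon production, fell from 171 and 202 TPM to 10.9 and 51.6 TPM (-2.90 ± 0.51, adjusted p = 0.00682). Cxcl10 (chr5:92346638-92348889), an interferon-induced chemokine for T cells, was at 19.6 and 24 TPM in soft and 0 and 3.9 TPM in stiff (-3.36 ± 0.60, adjusted p = 0.00729). Mx1, a GTPase that blocks viruses, went from 22.4 and 19.7 TPM to 0.759 and 7.28 TPM (-2.53 ± 0.54, adjusted p = 0.0164), and Oasl2, of the 2'-5' oligoadenylate synthetase family, from 105 and 76.1 TPM to 6.0 and 41.3 TPM (-2.39 ± 0.63, adjusted p = 0.0411). For Oasl2 WT stiff 2 differed from the soft mean by -1.09 on the log2 scale and WT stiff 1 by -3.69. Isg15, a ubiquitin-like protein, was at 213 and 153 TPM in soft and 7.88 and 113 TPM in stiff, and was not called (adjusted p = 0.109). WT stiff 2 lay much nearer the soft libraries than WT stiff 1. Isg15 is named after its values were seen.

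Receptors and adaptors of microbial sensing fell in 9 of 28 genes tested, beside 2.32% of all genes, and rose in 0 (median -0.45). Tlr2 (chr3:83836272-83841767), the receptor of bacterial lipoproteins, was at 86.8 and 100.4 TPM in soft and 21.7 and 18.8 TPM in stiff, and its stiff libraries were alike (-2.16 ± 0.13, adjusted p = 3.38e-05). Tlr9, the sensor of unmethylated DNA, fell from 24.1 and 27.8 TPM to 4.92 and 8.76 TPM (-1.82 ± 0.20, adjusted p = 0.000549), and Tlr7, a sensor of single-stranded RNA, from 80.6 and 92.2 TPM to 42.6 and 39.6 TPM (-1.05 ± 0.16, adjusted p = 0.00323). The co-receptor gene Cd14 fell from 734 and 827 TPM to 412 and 151 TPM (-1.64 ± 0.35, adjusted p = 0.0159), and Tlr1 from 58.3 and 57.6 TPM to 10.6 and 33.7 TPM (-1.56 ± 0.39, adjusted p = 0.0316). Cd14 was lower in WT stiff 2 and Tlr1 in WT stiff 1. Of the 28 genes 7 fell without WT stiff 1, 6 without WT stiff 2, 6 without WT soft 1, 5 without WT soft 2 and 4 without the 3 libraries that went against their Camkk2 label.

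Inflammatory cytokines and NF-kB targets fell in 6 of 28 genes tested, beside 2.32% of all genes, and rose in 1, Nos2 (median -0.81). Il1b (chr2:129364570-129371139), the precursor of interleukin-1 beta, was at 14.5 and 17.4 TPM in soft and 0.961 and 2.87 TPM in stiff (-2.61 ± 0.35, adjusted p = 0.0016). Tnf was at 28.4 and 24.6 TPM in soft and 1.01 and 10.7 TPM in stiff (-2.50 ± 0.60, adjusted p = 0.0278), and Cxcl2, a chemokine for neutrophils, at 21.3 and 23.4 TPM in soft and 4.57 and 4.66 TPM in stiff (-2.05 ± 0.14, adjusted p = 6.27e-05). All 3 were lower in both stiff libraries than in either soft library, and Cxcl2 was alike in the stiff libraries. Nfkbiz, an inducible regulator of NF-kB, fell from 15 and 18.8 TPM to 2.54 and 3.63 TPM (-2.13 ± 0.22, adjusted p = 0.000431). With WT stiff 2 left out 13 of the 28 fell, with either soft library left out 4, and without the 3 libraries that went against their Camkk2 label 2.

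Receptors for chemoattractants fell in 6 of 17 and rose in 2 (median -0.88), beside 2.32% and 1.77% of all genes. Fpr2 (chr17:17887824-17893952), a receptor of formylated bacterial peptides, was at 14.7 and 19 TPM in soft and 0.354 and 1.48 TPM in stiff (-3.27 ± 0.44, adjusted p = 0.00181), and its relative Fpr1 went from 2.33 and 6.23 TPM to 0 and 0.23 TPM (-2.15 ± 0.50, adjusted p = 0.0247). Cx3cr1, the fractalkine receptor of monocytes, was at 23.8 and 29.4 TPM in soft and 4.17 and 0.70 TPM in stiff (-3.21 ± 0.41, adjusted p = 0.00127), with the lower value in WT stiff 2. Without the 3 libraries that went against their Camkk2 label 1 of the 17 fell and 0 rose, without WT soft 2, 4 fell and 2 rose, and without WT soft 1, 5 fell and 1 rose. Ccr7, the lymph node homing receptor, rose from 2.24 and 3.04 TPM to 19.1 and 9.31 TPM (1.99 ± 0.34, adjusted p = 0.00647), and the leukotriene receptor Ltb4r1 from 0.946 and 0.599 TPM to 10.5 and 4.64 TPM (2.19 ± 0.36, adjusted p = 0.0046). Among C-type lectin and scavenger receptors 3 of 21 rose and 5 fell, beside 1.77% and 2.32% of all genes. Without WT soft 1, 0 rose and 6 fell, without WT soft 2, 1 rose and 3 fell, and without the 3 libraries that went against their Camkk2 label 0 rose and 3 fell. Clec4e (Mincle), which senses mycobacterial lipid, fell from 65 and 74.3 TPM to 14.5 and 15 TPM (-2.16 ± 0.18, adjusted p = 0.000117), its fungal sensing relative Clec4n (Dectin-2) from 60.6 and 109.9 TPM to 10.5 and 25.2 TPM (-2.25 ± 0.48, adjusted p = 0.016), and the inhibitory Clec12a from 357 and 344 TPM to 65.3 and 116 TPM (-1.99 ± 0.20, adjusted p = 0.000369). Mrc1 and Clec10a, described above, were among the 3 that rose.

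Fc and paired immunoglobulin-like receptors fell in 6 of 22 genes and rose in 1, the inhibitory Fcgr2b, and without the 3 libraries named above 3 fell and 0 rose. With all 12 libraries in the fit 31.8% of the 22 were called, beside 4.09% of all genes. Fcgr1 (chr3:96282909-96293969), the high-affinity IgG receptor, was at 133 and 114 TPM in soft and 18.7 and 22.6 TPM in stiff (-2.53 ± 0.15, adjusted p = 3.34e-05). Pilra, an inhibitory receptor, was at 17 and 17.9 TPM in soft and 1.62 and 2.14 TPM in stiff (-2.69 ± 0.22, adjusted p = 0.00011). The values of the activating Pilrb1 (21.7 and 13.7 TPM in soft and 2.14 and 1.31 TPM in stiff) and of Sirpb1a (27.2 and 18.5 TPM and 8.91 and 1.96 TPM) come from families of close copies and are uncertain. Outside the lists, the widest falls in both stiff libraries included genes of surface proteins. Ly6a (Sca-1) was at 64.1 and 46.8 TPM in soft and 5.25 and 7.23 TPM in stiff (-2.96 ± 0.23, adjusted p = 8.26e-05), Ms4a6b at 74.1 and 106 TPM in soft and 11.9 and 11.5 TPM in stiff (-2.82 ± 0.21, adjusted p = 6.94e-05), and Ms4a4c at 37.1 and 32.1 TPM in soft and 1.54 and 4.93 TPM in stiff (-3.19 ± 0.33, adjusted p = 0.000376). In all 3 both stiff libraries lay far below the lower soft library. Adgre4, an adhesion receptor of the F4/80 family, went from 8.45 and 11.7 TPM to 0.067 and 0.868 TPM (-2.96 ± 0.29, adjusted p = 0.000308), and Gpr162, an orphan receptor, from 36.9 and 54.6 TPM to 5.99 and 4.44 TPM (-2.90 ± 0.27, adjusted p = 0.000215). Hp, which encodes haptoglobin, the binder of free haemoglobin, fell from 28.7 and 37.7 TPM to 2.83 and 3.89 TPM (-2.97 ± 0.24, adjusted p = 9.63e-05). Pcp4l1, related to a calmodulin regulator, went from 65 and 61.5 TPM to 1.44 and 11.1 TPM (-3.56 ± 0.55, adjusted p = 0.00335), and the transcription factor gene Tal2 from 5.63 and 4.64 TPM to 0 and 0.0698 TPM (-2.56 ± 0.40, adjusted p = 0.00371).

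Of 14 genes of MHC class II presentation none was called, beside 4.09% of all genes, and their median log2 fold change was 0.00. Cd74, the invariant chain, was at 10837 and 14654 TPM in soft and 11628 and 15065 TPM in stiff (adjusted p = 0.879). Of 19 genes of MHC class I and the immunoproteasome 1 was called (5.26%), near the 4.09% of all genes. It was Nlrc5, the transactivator of class I genes, which fell from 14.8 and 13.9 TPM to 4.21 and 8.68 TPM (-1.11 ± 0.24, adjusted p = 0.0164). With WT stiff 1 or either soft library left out 0 of the 19 fell, and without WT stiff 2, 3 did. B2m was at 7422 and 6928 TPM in soft and 4795 and 7735 TPM in stiff (adjusted p = 0.515). Efferocytosis receptors and complement C1q fell in 3 of 16 genes (18.8% called, beside 4.09% of all genes). They were Axl (49.5 and 62.7 TPM in soft and 17.3 and 23.5 TPM in stiff), its ligand Gas6 (118 and 167 TPM and 77.4 and 58.9 TPM) and the scavenger receptor Stab1 (77.1 and 139 TPM and 42.5 and 22.8 TPM). Axl and Gas6 are a receptor and its bridging ligand for dying cells. Of the 16 genes 1 fell without WT soft 2 and 1 without the 3 libraries that went against their Camkk2 label, and without WT stiff 2, 2 rose and 3 fell.

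Macrophage and monocyte genes were above 1 TPM in all 4 libraries, except Ly6c2 (0.138 TPM in WT stiff 1) and Cx3cr1 (0.70 TPM in WT stiff 2). Of the 15, 4 fell (Fcgr1, Cd14, Lyz2 and Cx3cr1), beside 2.32% of all genes. Lyz2 (chr10:117277331-117282321), lysozyme, was the most abundant mRNA in both soft libraries, with 4.58% and 4.85% of all TPM, and took the third rank in the stiff libraries, with 1.91% and 2.05%. Without WT stiff 1, 6 of the 15 fell, and without the 3 libraries named above 1. Its TPM were 45849 and 48456 in soft and 19076 and 20502 in stiff (-1.25 ± 0.14, adjusted p = 0.000549). In bulk RNA, fewer cells of a type and less RNA per cell cannot be told apart. The 10 most abundant genes held 17.9% and 18.4% of TPM in the soft libraries and 13.5% and 15.5% in WT stiff 1 and 2. Many markers of other cell types were at or near 0, but not all. Il7r of the T and NK cell list was at 113 and 90.1 TPM in soft and 168 and 120 TPM in stiff. Pf4 of the megakaryocyte list was at 49.5 and 96.8 TPM in soft and 124 and 54.1 TPM in stiff. The osteoclast list summed to 437 and 358 TPM in soft and 704 and 899 TPM in stiff. Its median was 1.02, and 1 of its 6 tested genes was called, Acp5. Members of other lists passed the test too, beside 4.09% of all genes. They were 2 of 7 tested in the dendritic cell list, all 3 tested in the endothelial list and 1 of 2 in the T and NK cell list. The last was Cd4, which fell from 1.44 and 2.09 TPM to 0.229 and 0.19 TPM. The dendritic cell list summed to 1070 and 912 TPM in soft and 577 and 1503 TPM in stiff. Of its 7 tested genes Batf3 (33.7 and 13.8 TPM in soft and 62.8 and 122 TPM in stiff) and Ccr7 rose, while its defining members Flt3, Zbtb46, Xcr1 and Clec9a stayed at 1.08 TPM or less. The endothelial list summed to 25.3 and 19.1 TPM in soft and 60.1 and 43.5 TPM in stiff, where Vwf (20.0 and 16.2 TPM and 47.3 and 39.2 TPM) and Pecam1 (1.08 and 0.483 TPM and 11.6 and 3.27 TPM) rose and Kdr fell, while Cdh5 was at 0.135 TPM or less. The neutrophil list summed to 126 and 153 TPM in soft and 223 and 148 TPM in stiff, none of its 5 tested genes was called, and Elane, Mpo, Prtn3 and Ctsg were at 1.57 TPM or less.

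Genes of the matrix, its proteases and their inhibitors rose in 6 of 34 and fell in 1 (median 0.43), against 12 and 4 without WT stiff 2, 7 and 2 without WT stiff 1, 5 and 0 without WT soft 2 and 4 and 0 without the 3 libraries named above. With all 12 libraries in the fit 20.6% of the 34 were called, beside 4.09% of all genes. Fn1 (chr1:71585520-71653200), which encodes fibronectin, was at 11 and 11.2 TPM in soft and 349 and 73.3 TPM in stiff (3.73 ± 0.54, adjusted p = 0.00241), high in both stiff libraries and higher in WT stiff 1. Mmp13, a collagenase, rose from 9.45 and 10.0 TPM to 48 and 31.2 TPM (1.89 ± 0.21, adjusted p = 0.00064). The coagulation factor genes F10 (92 and 80.9 TPM in soft and 281 and 245 TPM in stiff, 1.60 ± 0.10, adjusted p = 3.38e-05) and F7 (52.3 and 33 TPM and 148 and 109 TPM, 1.59 ± 0.25, adjusted p = 0.00423) rose too. Spp1, which encodes osteopontin, fell from 2580.1 and 2831 TPM to 777 and 1484 TPM (-1.33 ± 0.24, adjusted p = 0.00832), and is named after its values were seen.

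Among 13 integrin subunits 1 rose and 2 fell (23.1% called, beside 4.09% of all genes). Without WT soft 2, and without the 3 libraries that went against their Camkk2 label, 1 rose and 0 fell, and without WT stiff 1, 2 rose and 3 fell. Itgb3 (chr11:104608000-104670476), the beta3 chain of the vitronectin receptor, was at 1.95 and 1.42 TPM in soft and 10.2 and 9.92 TPM in stiff, and the stiff libraries were alike (2.05 ± 0.16, adjusted p = 9.63e-05). Itga6, a laminin receptor chain, fell from 20.5 and 27.9 TPM to 11.3 and 5.6 TPM (-1.47 ± 0.28, adjusted p = 0.0104), and Itga4, a chain of VLA-4, from 21.7 and 28.7 TPM to 9.12 and 11.5 TPM (-1.21 ± 0.21, adjusted p = 0.00687). None of 16 mechanosensitive channels and targets of YAP, TAZ and SRF was called, near the 4.09% of all genes for a list this small. Their median was -0.23, with a range from -0.47 to 0.23, and none of the 16 changed 2-fold or more in either stiff library. The abundant member Actb was at 3075 and 2988 TPM in soft and 1622 and 2937 TPM in stiff (adjusted p = 0.221). Of 33 adhesion and actin genes 2 rose and 2 fell, with 0 and 2 without WT soft 2, 1 and 2 without WT soft 1 or WT stiff 1, 4 and 3 without WT stiff 2 and 0 and 1 without the 3 libraries. With all 12 libraries in the fit 12.1% of the 33 were called, beside 4.09% of all genes. Coro1a, an actin regulator of leukocytes, fell from 633 and 659 TPM to 173 and 265 TPM (-1.59 ± 0.16, adjusted p = 0.000376), and Ptk2b, the kinase Pyk2, from 104 and 99.4 TPM to 48.9 and 48 TPM (-1.06 ± 0.08, adjusted p = 6.27e-05). Ezr (28.2 and 23.4 TPM and 74.2 and 37.1 TPM) and the bundling protein gene Fscn1 (4.54 and 2.54 TPM and 10.3 and 6.3 TPM) rose.

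Iron genes changed on the side of uptake and of export, with 26.7% of the 15 tested called, beside 4.09% of all genes. Tfrc (chr16:32608920-32632794), the transferrin receptor, was at 18.2 and 20.8 TPM in soft and 124 and 136 TPM in stiff, with alike stiff libraries (2.68 ± 0.12, adjusted p = 8.11e-06). Slc40a1, the iron exporter ferroportin, fell from 11.2 and 13.1 TPM to 0.694 and 2.93 TPM (-2.34 ± 0.33, adjusted p = 0.00208), Cp, the ferroxidase ceruloplasmin, from 7.63 and 12.5 TPM to 0.678 and 1.69 TPM (-2.34 ± 0.37, adjusted p = 0.0041), and Slc11a1, the metal transporter of phagosomes, from 381 and 381 TPM to 125 and 209 TPM (-1.23 ± 0.19, adjusted p = 0.00334). These were 1 gene that rose and 3 that fell of 15 tested, and without the 3 libraries named above only Tfrc passed.

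The 2 stiff libraries parted in metabolism and proliferation. Glycolysis genes rose in 5 of 22 tested, beside 1.77% of all genes, and fell in 0. Their median was 1.61 in WT stiff 1 and 0.16 in WT stiff 2. Of all genes, 6.69% rose at least 2-fold from the soft mean in WT stiff 1 and 2.26% in WT stiff 2. At least a 2-fold rise from the soft mean was seen in 13 of the 22 in WT stiff 1 and in 1 in WT stiff 2, and with WT stiff 1 or either soft library left out 1 gene rose, against 13 without WT stiff 2. Pgk1, phosphoglycerate kinase, was at 316 and 305 TPM in soft and 1908 and 499 TPM in stiff (1.65 ± 0.45, adjusted p = 0.0473), and Eno1, enolase, at 606 and 576 TPM in soft and 2389.6 and 860.1 TPM in stiff (1.28 ± 0.35, adjusted p = 0.0472). Hk2, hexokinase, was at 13.2 and 13.3 TPM in soft and 60.7 and 21.2 TPM in stiff (1.38 ± 0.36, adjusted p = 0.0372). In these 3 WT stiff 1 stood far above the other libraries, and WT stiff 2 lay slightly above soft. Pfkp, the platelet-type phosphofructokinase, was instead alike in the stiff libraries, at 104 and 93.8 TPM against 40.9 and 37.1 TPM in soft (1.32 ± 0.12, adjusted p = 0.000168).

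Hypoxia response genes were not called in any of 19, near the 4.09% of all genes for a list this small. Yet 16 of them were at least 2-fold above the soft mean in WT stiff 1, beside 6.69% of all genes. In WT stiff 2 there were 0, beside 2.26%. Their median was 2.12 in WT stiff 1 and -0.12 in WT stiff 2. Bnip3, a mitophagy receptor, was at 20.1 and 21.4 TPM in soft and 357 and 17.4 TPM in stiff, and Egln3, the oxygen-sensing prolyl hydroxylase PHD3, at 0.27 and 0.589 TPM in soft and 75.7 and 1.27 TPM in stiff. Vegfa was at 46.5 and 66 TPM in soft and 207 and 19.9 TPM in stiff, and Slc2a1, the glucose transporter GLUT1, at 30.0 and 36.2 TPM in soft and 224 and 45.8 TPM in stiff. Bnip3, Egln3 and Vegfa were high in WT stiff 1 alone, and WT stiff 2 lay below both soft libraries in Vegfa and Bnip3. The abundant members Mif (323 and 286 TPM in soft and 1661 and 419.8 TPM in stiff, adjusted p = 0.0837) and Fam162a (36.5 and 39.3 TPM and 337 and 61.5 TPM, adjusted p = 0.0733) lay above soft in both stiff libraries. With WT stiff 2 left out 16 of the 19 rose, and with WT stiff 1 left out 0 rose and 2 fell.

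DNA replication and cell cycle genes showed the same split. Of 42 tested 1 rose (2.38%, near the 1.77% of all genes). This was Gins2, at 9.09 and 8.93 TPM in soft and 29.5 and 16.2 TPM in stiff (1.19 ± 0.32, adjusted p = 0.0411). In WT stiff 1, however, 28 of the 42 were at least 2-fold above soft, beside 6.69% of all genes. In WT stiff 2 there were 0, beside 2.26% of all genes. The medians were 1.52 and -0.19. Without WT stiff 2, 27 rose, without WT stiff 1, 0 rose and 1 fell, and with either soft library left out none was called. Ube2c, a ubiquitin-conjugating enzyme of mitosis, was at 14.7 and 12.6 TPM in soft and 105 and 6.06 TPM in stiff. The proliferation marker Mki67 was at 3.12 and 4.44 TPM in soft and 40.8 and 2.94 TPM in stiff, and Birc5 (survivin) at 8.44 and 7.75 TPM in soft and 99.5 and 5.0 TPM in stiff. All 3 were high in WT stiff 1 alone. Pcna, the replication clamp, went against this order, at 459.8 and 359 TPM in soft and 287 and 556 TPM in stiff. Bnip3, Egln3, Vegfa, Slc2a1, Mki67 and Birc5 are named after their values were seen.

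**Figure D4:**
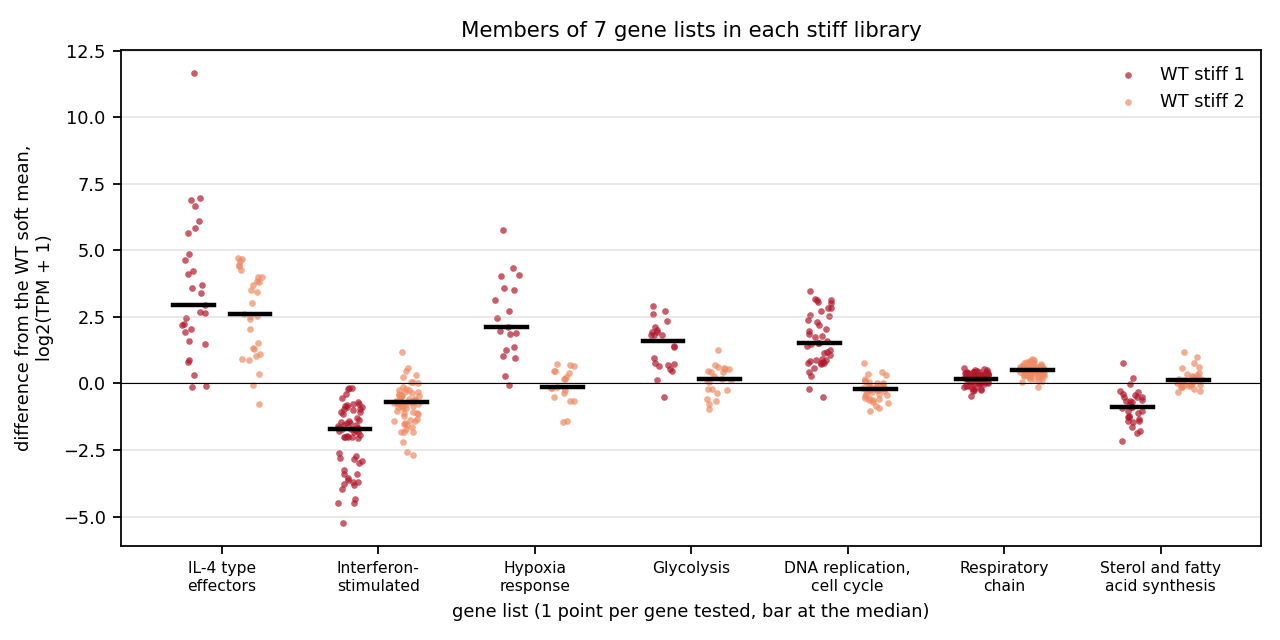
Difference of WT stiff 1 (left of each pair) and WT stiff 2 (right) from the soft mean in log2(TPM + 1), 1 point per gene tested in 7 lists, with the median as a bar. IL-4 type effectors lie high in both libraries (medians 2.96 and 2.62), while hypoxia (2.12 and -0.12) and cell cycle genes (1.52 and -0.19) lie high in WT stiff 1 alone.

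Sterol and fatty acid synthesis genes were lower in WT stiff 1 alone. None of 32 was called, beside 4.09% of all genes. The median was -0.90 in WT stiff 1 and 0.12 in WT stiff 2. At least 2-fold below soft were 14 of the 32 in WT stiff 1, beside 4.58% of all genes, and 0 in WT stiff 2, beside 3.08%. Fdps, an enzyme of isoprenoid synthesis, was at 136 and 124 TPM in soft and 48.8 and 163 TPM in stiff, and Msmo1, a sterol oxidase, at 119 and 108 TPM in soft and 41.1 and 107 TPM in stiff. Lpl, lipoprotein lipase, was at 2279 and 2069.8 TPM in soft and 106 and 1947 TPM in stiff, so that WT stiff 2 stayed with the soft libraries (adjusted p = 0.195, named after its values were seen). LXR targets and lipid handling genes held no called member among 24, beside 4.09% of all genes. In lists this small a count of 0 is near that share. Apoe was at 8727 and 1362 TPM in soft and 3424 and 2873 TPM in stiff, so that the soft libraries lay farther apart than the stiff libraries. Without WT stiff 2, 14 of the 32 sterol and fatty acid genes and 3 of the 24 LXR genes fell.

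Respiratory chain subunits lay slightly above soft, without a call. Of 72 tested none was called, beside 4.09% of all genes. A log2 fold change above 0 was seen in 70, beside 51.5% of all genes, and in 55 both stiff libraries lay above both soft libraries, beside 20.0%. The median was 0.34, with 0.18 in WT stiff 1 and 0.52 in WT stiff 2, so that here WT stiff 2 was the farther library. Cox4i1, a subunit of cytochrome oxidase, was at 1117 and 1117 TPM in soft and 1365 and 1377 TPM in stiff (0.30 ± 0.08, adjusted p = 0.0555), and Atp5e, of ATP synthase, at 1109 and 985 TPM in soft and 1192 and 1609 TPM in stiff (0.41 ± 0.16, adjusted p = 0.163).

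Several genes were high in WT stiff 2 and not in WT stiff 1. Ocstamp and Dcstamp, which encode membrane proteins of macrophage fusion, were at 4.83 and 4.37 TPM in soft and 8.91 and 93.6 TPM in stiff and at 43.4 and 37.6 TPM in soft and 8.1 and 127 TPM in stiff, respectively. Itgax, the CD11c integrin chain, was at 141 and 125 TPM in soft and 171 and 627 TPM in stiff. In the WT soft+IL-4 libraries Ocstamp was at 101 and 97.5 TPM, Dcstamp at 133 and 131 TPM and Itgax at 622 and 639 TPM. In all 3 WT stiff 2 lay at the level of the IL-4 libraries and WT stiff 1 did not, and none was called (adjusted p from 0.0758 to 0.891). They are named after their values were seen. Among the genes called higher, the widest differences between the stiff libraries were in Arg1, Ear2, Chil4 and Ccl24, described above, and in 4 genes that were low in soft. Tuba8, a tubulin, was listed at 0 in both soft libraries and was at 23.3 and 3.02 TPM in stiff (adjusted p = 0.0179). Ak4, a mitochondrial adenylate kinase, went from 0.55 and 0.675 TPM to 24.5 and 3.36 TPM (2.71 ± 0.62, adjusted p = 0.0226), Azin2, which regulates polyamine synthesis, from 1.16 and 1.29 TPM to 42.1 and 4.96 TPM (2.85 ± 0.70, adjusted p = 0.0301) and Cdh1, E-cadherin, from 0.0782 and 0.161 TPM to 13.6 and 1.42 TPM (2.41 ± 0.64, adjusted p = 0.0411). Among the genes called lower, the widest differences were in Ifit1, Kcnj2, Oasl2, Ifit3 and Tnf. Kcnj2, a potassium channel, went from 54.1 and 48.6 TPM to 1.94 and 18.5 TPM (-2.79 ± 0.64, adjusted p = 0.023). In Tuba8, Ak4, Azin2, Cdh1 and Kcnj2 WT stiff 1 was the farther from soft.

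**Figure D5:**
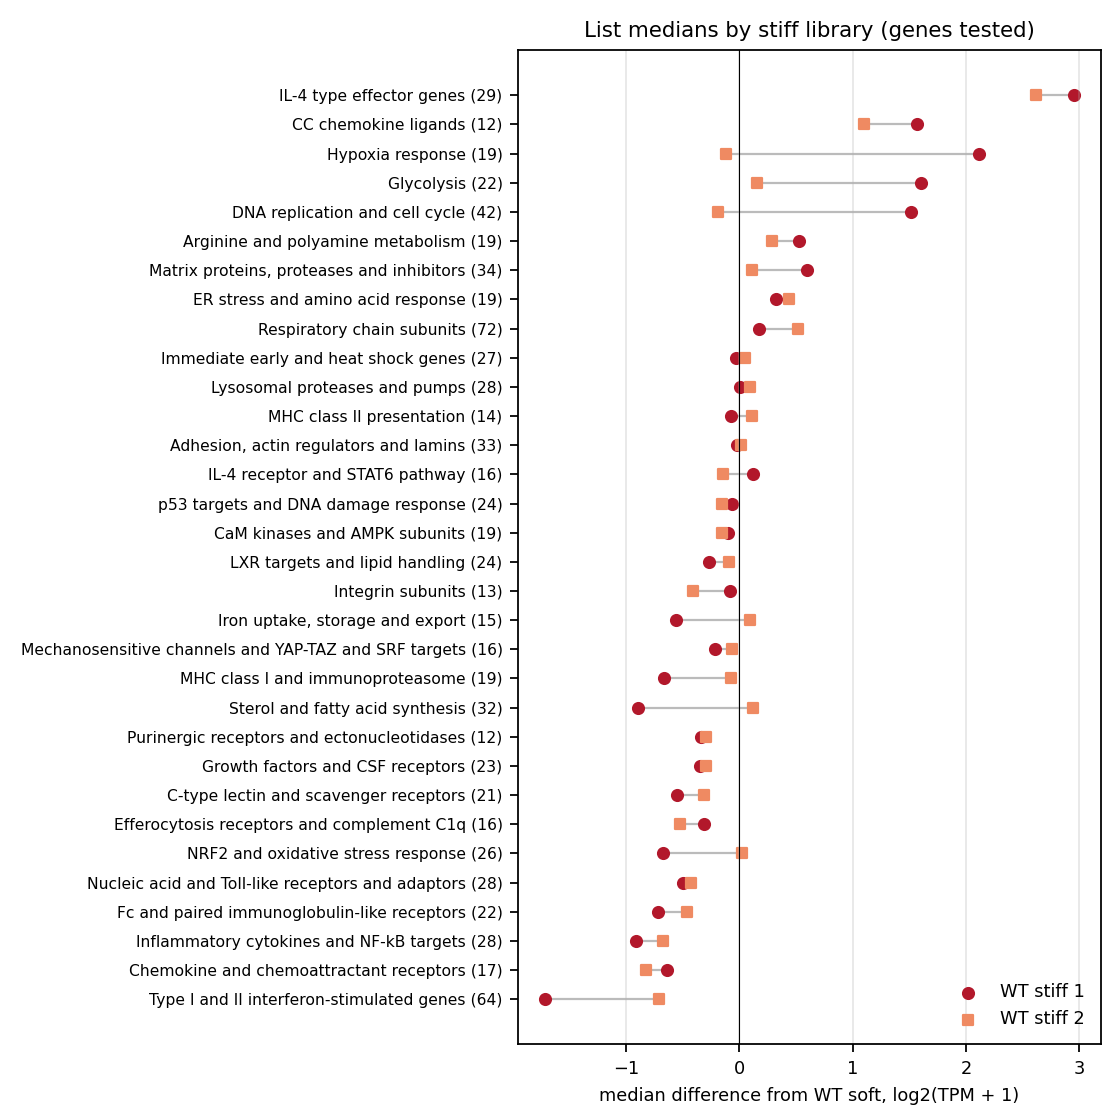
Median over each of 32 pathway lists (cell type marker lists are not drawn) of the difference from the soft mean in log2(TPM + 1), for WT stiff 1 (circles) and WT stiff 2 (squares), with the number of genes tested in brackets. IL-4 type effectors hold the upper end in both libraries, interferon-stimulated genes the lower end in WT stiff 1 (-1.72) and chemoattractant receptors that in WT stiff 2 (-0.82), and hypoxia, glycolysis and cell cycle genes show the longest lines between them.

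Smaller numbers of genes were called in the other lists, to be set beside the 4.09% called of all genes. The shares were 18.5% for stress and early response genes, 15.8% for ER stress and amino acid genes and 7.69% for NRF2 genes. They were 12.5% for damage response genes and 17.4% for growth factor and receptor genes. Stress and early response genes rose in 2 of 27 and fell in 3. Ier3, an early response gene, rose from 29.8 and 34.8 TPM to 331 and 149 TPM (2.75 ± 0.28, adjusted p = 0.000377), while the transcription factor genes Fos (102 and 102 TPM to 29.6 and 49.6 TPM), Egr3 (5.32 and 5.78 TPM to 0 and 2.13 TPM) and Nr4a1 (8.28 and 12.1 TPM to 0.523 and 4.85 TPM) fell. In the ER stress and amino acid list 3 of 19 rose, Atf5 (28.5 and 28.7 TPM to 145 and 57.7 TPM), the serine synthesis enzyme gene Phgdh (1.88 and 1.88 TPM to 13.4 and 7.09 TPM) and the disulfide isomerase gene Pdia4 (60.8 and 69.6 TPM to 149.6 and 139 TPM). Of NRF2 and oxidative stress genes 2 of 26 fell, Gpx3 (53.1 and 51.6 TPM to 7.49 and 16.7 TPM), a glutathione peroxidase, and Sod2 (55.4 and 63.7 TPM to 21.5 and 38.7 TPM), the mitochondrial superoxide dismutase. The damage response list held 1 gene that rose and 2 that fell of 24, among them Gadd45a, at 29.7 and 38.1 TPM in soft and 13.1 and 11.6 TPM in stiff. Growth factor and receptor genes rose in 2 of 23 and fell in 2, and Igf1, insulin-like growth factor 1, was alike in the stiff libraries, at 308 and 317 TPM against 149 and 150.0 TPM in soft (1.06 ± 0.08, adjusted p = 6.27e-05). The ADP receptor gene P2ry1 rose from 6.4 and 5.52 TPM to 16.5 and 14.9 TPM (1.26 ± 0.13, adjusted p = 0.000448), while P2ry13 fell from 2.41 and 3.14 TPM to 0.415 and 0.477 TPM. Lysosomal genes held 1 call of 28 (3.57%), no more than the 4.09% of all genes. It was Acp5, tartrate-resistant acid phosphatase, which rose from 18.3 and 16.4 TPM to 68.9 and 43.4 TPM. The galectin gene Lgals3, at 7629 and 6577 TPM in soft and 9489.9 and 12142 TPM in stiff (0.60 ± 0.15, adjusted p = 0.0365), changed by less than 2-fold. Without the 3 libraries that went against their Camkk2 label 1 early response gene rose and 0 fell, 1 ER stress gene rose, and no NRF2, damage response or lysosomal gene was called. Without WT stiff 2, 9 of the 26 NRF2 genes fell and 5 of the 19 ER stress genes rose, and without WT stiff 1, 4 of the 23 growth factor and receptor genes rose and 4 fell. None of 19 calmodulin-dependent kinases, calmodulins and AMPK subunits was called.

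The stiff libraries were also compared with the WT soft+IL-4 libraries, to ask how the stiff gel without IL-4 stood against the cytokine. The limma test called 0 of 10819 genes (0%), the smallest adjusted p was 0.585, and 542 genes (5.01%) had an unadjusted p under 0.05. At least a 2-fold difference of means was seen in 266 genes, so the absence of calls does not show that the groups were alike. With WT stiff 2 left out the same test called 921 genes, 640 higher and 281 lower in WT stiff 1, a single library that is then assumed to vary like the other groups. Of the 192 genes that rose, WT stiff 2 lay within 1.5-fold of the IL-4 mean in 190 and WT stiff 1 in 82. Of the 251 that fell, the numbers were 247 and 129. The share over all 10819 genes was not computed. Only 22 of all genes differed 2-fold between WT stiff 2 and WT soft+IL-4 2, against 1042 for WT stiff 1. These counts therefore cannot show a closeness particular to the called genes. Retnla was at 7138 and 7096 TPM in the IL-4 libraries, Chil3 at 1926 and 1911 TPM and Arg1 at 242 and 40.3 TPM. WT stiff 2 stood near these values for Retnla and Chil3, and WT stiff 1 stood above them for all 3. Ifit3 was at 11.8 and 12.5 TPM and Irf7 at 43.6 and 42.7 TPM with IL-4, with WT stiff 2 near these values and WT stiff 1 below them. The log2 difference of stiff from IL-4 was 0.88 ± 0.45 for Retnla and -1.30 ± 0.64 for Ifit3.

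Whether the stiff gel acted alike on KO BMDM was tested with the interaction of genotype and gel. The response differed in 112 genes (1.04%) at an adjusted p under 0.05, and 98 of these were among the 443 called in WT, 25 that rose and 73 that fell. In KO BMDM Retnla was at 434 and 242 TPM in soft and 2016 and 2092 TPM in stiff, and Il4i1 at 19.8 and 17.1 TPM and 85.9 and 99.7 TPM. The difference of the KO from the WT response was -2.75 ± 0.64 (adjusted p = 0.1) for Retnla and -1.53 ± 0.19 (adjusted p = 0.0101) for Il4i1. Fcgr1 was at 149.7 and 122 TPM in KO soft and 113 and 92.1 TPM in KO stiff, with a difference of 2.12 ± 0.21 (adjusted p = 0.00913), and Tfrc at 18.8 and 22.3 TPM and 46.7 and 51.7 TPM, with -1.45 ± 0.16 (adjusted p = 0.00968). In all 443 genes the KO response was smaller than the WT response or opposite to it. These genes were, however, chosen for a large WT response in the same libraries. The number rests on single libraries, since it was 361 without WT stiff 1, 1781 without WT stiff 2, 4 without KO soft 1, 5 without KO stiff 2, 13 without WT soft 2 and 2 without the 3 libraries that went against their Camkk2 label. With only the 4 groups in the fit it was 0. None of the 112 genes kept its call without the 3 libraries. An unadjusted p under 0.05 was found in 1207 genes in the fit of all 12 libraries.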

How the data were processed

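The authors deposited 1 table of TPM values for 14098 genes in 12 libraries, each scaled to a total of 1000000. The submitters' processing notes name Trim Galore 0.6.7, Salmon 1.4.0 and mm10, whereas the study's methods describe alignment with STAR and counting with featureCounts, so how the TPM were made is not settled. Libraries were poly-A selected and strand-specific. TPM keep no read counts, so depth is unknown and a gene at 0 is only listed at 0. Groups were taken from the labels, which the column names repeat.

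The fit used limma 3.58.1 (R 4.3.3) on log2(TPM + 1), a scale that understates changes of low genes. Genes entered if 2 or more of the 4 libraries held 1 TPM or more. The model had 6 group means, all 12 libraries, no covariates, a variance trend and Benjamini-Hochberg adjustment within a comparison, and errors are SE with 2 libraries per group. Median-of-ratios scaling moved the median of all genes by 0.003. Replicate numbers were not taken as pairs, because the deviations of WT stiff 1 and WT soft 1 from their group means correlated at -0.06. The share of genes listed at 0 went with the number, at 10.7 to 13.4% in the 6 replicates 1 and 5.9 to 7.54% in the 6 replicates 2, and its part in the results was not tested. The code was checked on simulated data. The comparison, gene lists and rules were chosen with earlier results of these data known. Named genes are Camkk2, the 12 genes per direction with the widest gap between groups, the 8 per direction among called genes in which the stiff libraries differ most, up to 4 called genes per list by fold change (else up to 2 by level), and genes that the study names. Gene positions are from GENCODE vM21, found for 13521 symbols, and promoters from RefSeq (GRCm38.p6), found for 8747 of the tested genes (80.8%), 406 of all by an older symbol. Alternatives were a pseudocount of 0.1, other filters, scaling, group weights, a replicate block, thresholds and leaving out libraries.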

Additional observations from a re-analysis of the deposited data

Results flagged for a closer look

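The stiffness response differed between KO and WT BMDM, by the interaction test of limma with Benjamini-Hochberg adjustment, in 112 of the tested genes. Values below are the KO minus the WT response on the log2 scale, each for a gene described above that passed this test. Among the genes that fell in WT BMDM, the difference was positive in each. It was 2.12 for Fcgr1, 1.86 for Tlr2, 1.60 for Tlr9, 1.73 for Clec4e, 1.75 for Clec12a, 2.50 for Pilra and 2.64 for Adgre4, all of them receptors. For the inflammatory genes it was 2.56 for Il1b, 1.64 for Cxcl2 and 1.82 for Nfkbiz. For surface and other proteins it was 2.76 for Ly6a, 2.53 for Ms4a6b, 2.70 for Ms4a4c, 2.61 for Gpr162, 2.39 for Hp, 1.27 for Axl, 3.04 for Ifit3b and 1.02 for Lyz2. For the cytoskeletal and signalling genes Coro1a, Ptk2b and Gadd45a it was 1.37, 0.93 and 1.38. Among the genes that rose in WT BMDM, the difference was negative in each. It was -1.53 for Il4i1, -2.10 for Tmem26, -1.75 for Flt1, -2.09 for Ier3, -1.45 for Tfrc, -1.01 for P2ry1, -1.04 for F10, -0.98 for Pfkp, -0.86 for Pdia4 and -0.85 for Igf1. These genes were named for their WT response, which enters the difference, so the sign is no independent result. The libraries WT soft 2, KO soft 1 and KO stiff 1 went against their Camkk2 label, and without them none of the 112 genes kept its call.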

How the results depend on the processing

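The 443 calls of stiff against soft came to 485 with a pseudocount of 0.1, 403 without a filter, 444 with a filter over 12 libraries, 444 with median-of-ratios scaling and 453 with the replicate number as a block. They came to 23 with only the groups compared in the fit, 290 with a weight per group, 140 without the 3 libraries that went against their Camkk2 label and 107 when a change of 2 or more on the log2 scale was asked for, and leaving out 1 library gave 277 to 1064. The 112 genes whose response differed between genotypes came to 0, 72 and 2 under the first 3 of these settings, to 193 at an adjusted p under 0.1, to 127 with the block and to between 4 and 1781 with 1 library left out. The 0 calls against IL-4 stayed at 0 except without WT stiff 2 (921), a range of 0 to 921. Replicate numbers were not taken as pairs (r = -0.06 for the 1 pair), and the block ended 1 of 110 calls of named genes. Of these 110, none reversed, and 96 lost the call with only the groups compared, 24 with a weight per group, 70 without the 3 libraries, 39 without WT soft 2 and 16 without WT stiff 1. Ube2c, at 0.90 and not called, was called at -1.05 without WT stiff 1 and stood at 2.85 without WT stiff 2. None of the 112 genes above kept its call without the 3 libraries. The cause of these changes was not tested. Depth is unknown for TPM.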
